A study of Mus musculus with 38 samples.

Results

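The genes that make, destroy, sense and retrieve vitamin D in the kidney were followed across the 3 experiments of the study. There were 6, chosen by symbol from the 55487 genes of the count table: Cyp24a1, Cyp27b1, Vdr, Rxra, Lrp2 and Cubn, and all 6 passed the filter on low counts in each experiment. Kidney RNA came from 14 male C57BL/6JRj mice, 16 female BALB/c mice and 8 precision-cut kidney slice (PCKS) cultures of male DBA/2J mice. In the anti-GBM experiment, mice were immunized with sheep IgG in Freund's complete adjuvant and then injected with nephrotoxic serum against the glomerular basement membrane, and their healthy controls received PBS. They were given vehicle (4 healthy and 4 diseased mice) or 1 µg of recombinant human FGF23 per injection (3 healthy and 3 diseased mice) in 6 intravenous injections over 6 days. In the Adriamycin experiment, a single intravenous dose of Adriamycin (doxorubicin), which injures podocytes, or of saline was followed by 1 injection of vehicle or of 1 µg FGF23, with 4 mice in each of the 4 groups. Mice of both experiments were 10 weeks old at euthanasia, 24 h after the last injection. The slices all came from mice fed adenine, which causes tubulointerstitial disease, aged 23 weeks at euthanasia. They were cultured with vehicle (4) or 200 ng/mL FGF23 (4) without disease-free controls, and the labels give 1 h of treatment where the study's text gives 24 h. The study describes the 4 slice cultures of a treatment as biologically independent.

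Calcitriol, the active form of vitamin D, is made mainly in the proximal tubule. There, megalin (Lrp2) and cubilin (Cubn) retrieve filtered vitamin D bound to its carrier protein, and the enzyme encoded by Cyp27b1 converts the precursor to calcitriol. Calcitriol acts through the vitamin D receptor (Vdr) paired with the retinoid X receptor (Rxra), and the enzyme encoded by Cyp24a1 inactivates calcitriol and its precursor. In a healthy kidney, FGF23 is known to lower Cyp27b1 and raise Cyp24a1, while parathyroid hormone acts on both in the opposite direction, and calcitriol itself induces Cyp24a1 through Vdr.

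On GRCm38, 4 of the 6 genes lie on chromosome 2. Cubn (ENSMUSG00000026726) spans bases 13276338 to 13491813, Rxra (ENSMUSG00000015846) 27676440 to 27762957, Lrp2 (ENSMUSG00000027070) 69424340 to 69586065 and Cyp24a1 (ENSMUSG00000038567) 170482708 to 170497145. Cyp27b1 (ENSMUSG00000006724) lies on chromosome 10 from 127048250 to 127053006 and Vdr (ENSMUSG00000022479) on chromosome 15 from 97854425 to 97910630. Exons of Cyp24a1 share 83 bases with Pfdn4, and exons of Cubn share 368 bases with Gm13270, each on the opposite strand. The library kit keeps strand, but the sources used here do not state whether the counting used it, so reads in these shared bases cannot be assigned to 1 of the 2 genes. Pfdn4 was at 6.74 to 18.7 CPM, against 9.61 to 282 CPM for Cyp24a1.

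RefSeq upstream sequence (GRCm38.p6) was at hand for 5 of the 6 genes. Of these, Cyp27b1 is shown as the member that disease moved in opposite directions in the mouse experiments. Lrp2 and Cubn are shown as the pair of members whose levels correlated most strongly across libraries, after centring within each experiment. Each of these 3 sequences is given from 5' to 3' on the gene's strand, without any base that GENCODE places in an exon. Cyp27b1 is shown from chr10:127047996-127048245 (plus strand), Lrp2 from chr2:69586066-69586279 (minus strand) and Cubn from chr2:13491877-13492126 (minus strand). Capitals mark matches, on either strand, to the nuclear receptor half-site AGGTCA, its variant AGTTCA, the variant with GGGTCA or the one with GGTTCA, to the HNF1 half-site GTTAAT or to the CCAAT box.
Cyp27b1: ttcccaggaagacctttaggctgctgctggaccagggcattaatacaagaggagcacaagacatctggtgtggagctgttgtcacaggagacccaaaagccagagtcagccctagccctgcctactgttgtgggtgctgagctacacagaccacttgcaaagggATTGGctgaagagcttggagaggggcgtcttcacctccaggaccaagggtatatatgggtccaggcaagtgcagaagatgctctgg
Lrp2: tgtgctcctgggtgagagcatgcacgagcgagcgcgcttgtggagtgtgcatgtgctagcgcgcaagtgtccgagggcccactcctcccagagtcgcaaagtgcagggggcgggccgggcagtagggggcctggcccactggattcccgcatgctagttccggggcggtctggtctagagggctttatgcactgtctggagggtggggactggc
Cubn: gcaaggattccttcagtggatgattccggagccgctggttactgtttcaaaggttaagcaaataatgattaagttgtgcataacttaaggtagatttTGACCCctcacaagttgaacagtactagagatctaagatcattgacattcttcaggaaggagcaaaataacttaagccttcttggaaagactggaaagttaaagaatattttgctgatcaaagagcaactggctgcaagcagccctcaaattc
The Cyp27b1 stretch held a CCAAT box on the minus strand, which 33.8% of 32851 RefSeq promoters hold in their 250 upstream bases. The Cubn stretch held 1 half-site (GGGTCA, minus strand), and 38.6% of the promoters hold at least 1 of the 4 half-sites. The Lrp2 stretch, trimmed to 214 bases, held none of these letters, and GTTAAT, present in 6.43% of promoters, was found in none of the 3. A pair of half-sites on 1 strand 3 bases apart, the spacing known for Vdr with Rxra, was in 0.0396% of promoters and in none of the stretches shown. The base composition of the uptake pair differed, with 65.9% G or C in the Lrp2 stretch and 39.6% in that of Cubn.

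Total counts of a library lay between 13704248 and 23630210 for anti-GBM mice, between 15665050 and 27583911 for Adriamycin mice and between 11186925 and 16254987 for slices. Levels are CPM (read counts scaled to library size by TMM within an experiment), and the lowest count behind any member value was 58, for Cyp27b1. The labelled tissue showed its markers: all 8 proximal tubule markers were detected, summing to 6434 to 14696 CPM in the mouse kidneys. In the slices the same 8 genes summed to 413 to 1022 CPM. Markers of tubular injury (4 genes such as Havcr1 and Lcn2) summed to 1392 to 2482 CPM in the slices. In the anti-GBM experiment they summed to 349.5 to 1029 CPM in diseased and 15.7 to 26.5 CPM in healthy mice. Sums in the Adriamycin experiment were 51.3 to 109.8 CPM in diseased and 98.3 to 184 CPM in healthy mice. In these bulk samples fewer cells of a type and less RNA per cell cannot be told apart.

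Cyp27b1, the gene of calcitriol synthesis, rose in anti-GBM disease and fell in Adriamycin nephropathy. In healthy vehicle mice of the anti-GBM experiment it was at 4.75, 6.08, 3.94 and 20.7 CPM, and in healthy FGF23 mice at 10.3, 6.73 and 6.13 CPM. In anti-GBM disease it was at 41.6, 27.2, 22.04 and 23.7 CPM with vehicle and at 14.8, 15.3 and 24.0 CPM with FGF23. The healthy vehicle mouse NTS4, at 20.7 CPM, lay among the diseased mice, and without it every diseased mouse was above every healthy mouse. Disease raised Cyp27b1 by 1.46 on the log2 scale over both treatments (SE 0.33, adjusted p = 0.00216, edgeR's quasi-likelihood test on all 14 libraries). The effect was 1.72 among vehicle mice (adjusted p = 0.00625, edgeR) and 1.21 among FGF23 mice, where it did not pass (adjusted p = 0.0849, edgeR). Without NTS4 the log2 fold change was 1.91 (adjusted p = 9.58e-06, edgeR).

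Among Adriamycin-experiment mice, healthy vehicle mice had 14.2, 17.5, 21.02 and 13.9 CPM of Cyp27b1, and diseased vehicle mice had 5.99, 3.86, 5.51 and 4.65 CPM. All diseased vehicle mice were below all healthy vehicle mice. With FGF23, healthy mice had 9.54, 5.11, 14.1 and 2.73 CPM and diseased mice had 3.27, 6.11, 6.14 and 6.49 CPM, which overlap. Disease lowered Cyp27b1 over both treatments, with a log2 fold change of -1.12 (SE 0.25, adjusted p = 0.0308, edgeR). The difference was -1.73 among vehicle mice (adjusted p = 0.0490, edgeR) and -0.50 among FGF23 mice (adjusted p = 0.609, edgeR). This call was close to its threshold. When the 16 mice were left out singly, edgeR's adjusted p was 0.00315 to 0.0692, under 0.05 in 7 runs and above it in the 9 runs without Ad2, Ad3, Ad5, Ad7, Ad8, Ad9, Ad11, Ad13 or Ad14, while the log2 fold change stayed between -1.26 and -0.90.

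The disease effects on Cyp27b1 differed between the experiments, by 2.59 on the log2 scale (SE 0.43, adjusted p = 2.97e-05) in an edgeR fit of all 30 mice. Of the 16954 genes in that fit, 41.6% differed between the experiments at an adjusted p below 0.05. Strain, sex, agent and duration of treatment all differed between the experiments and cannot be told apart. Tubular injury markers moved with the anti-GBM rise, with 4 of 4 higher in anti-GBM disease, where 48.3% of all genes were called. Havcr1 rose by 6.63, Lcn2 by 6.05, Krt20 by 7.59 and Vcam1 by 3.67 on the log2 scale. In Adriamycin disease, where 1.94% of all genes were called, none of the 4 was called higher. Havcr1 was called lower, by 0.98 on the log2 scale (adjusted p = 0.0157, edgeR). The 4 had a median log2 fold change of 0.05 there, and the part of tubular injury in the Cyp27b1 levels was not tested.

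**Figure D1:**
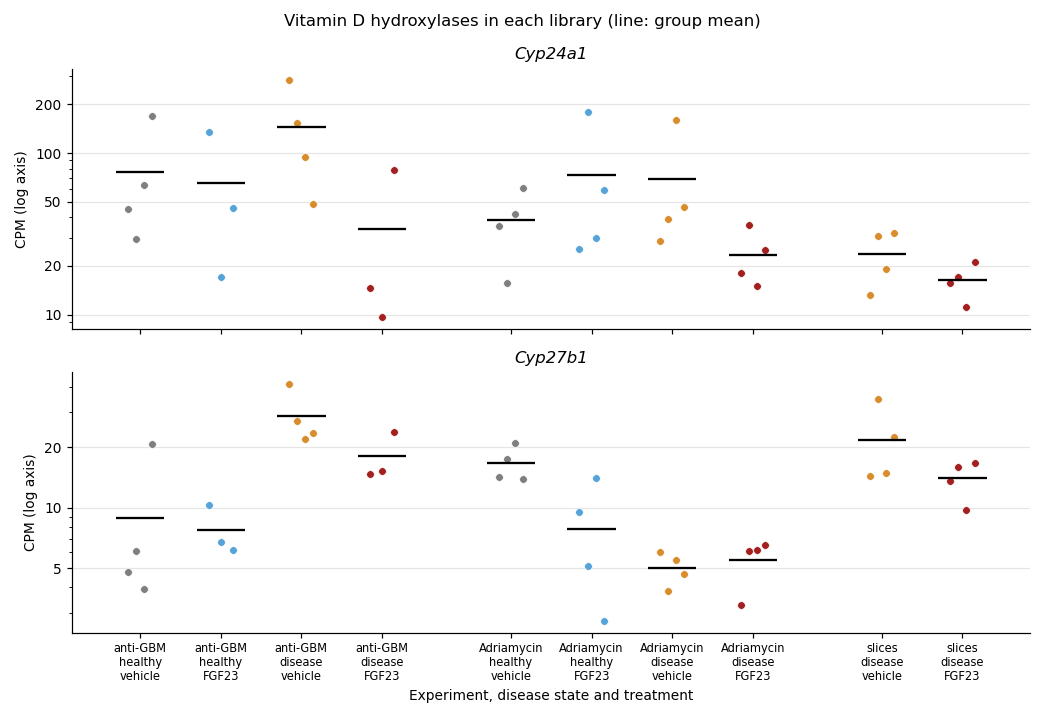
Cyp24a1 and Cyp27b1 in CPM on log axes for each of the 38 libraries, by experiment, disease state and treatment, with a line at each group mean. Cyp27b1 means run from 5.001 CPM in Adriamycin disease with vehicle to 28.6 CPM in anti-GBM disease with vehicle, and single Cyp24a1 libraries reach 161 to 282 CPM in 4 of the 10 groups.

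Cyp24a1, the gene of calcitriol breakdown, was the most variable member within the groups of mice, and none of its comparisons passed the test. In the anti-GBM experiment, healthy mice had 44.8, 29.2, 63.6 and 169 CPM with vehicle and 134, 17.02 and 45.6 CPM with FGF23. Diseased mice had 282, 155, 94.5 and 48.7 CPM with vehicle and 14.7, 9.61 and 78.1 CPM with FGF23. Among diseased mice, 2 of 3 given FGF23 were below every vehicle mouse, and NTS16, at 78.1 CPM, was above 1 of them. The log2 fold change with FGF23 in anti-GBM disease was -2.09 (SE 0.88, adjusted p = 0.365, unadjusted p = 0.0316, edgeR). It was -3.58 without NTS16 and -1.54 without NTS5, at 282 CPM, and passed the test in neither case (adjusted p = 0.171 and 0.475, edgeR).

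In the Adriamycin experiment, healthy mice had 35.2, 15.8, 42.1 and 61.1 CPM of Cyp24a1 with vehicle and 25.6, 179, 29.99 and 59.4 CPM with FGF23. Diseased mice had 28.7, 38.98, 161 and 46.4 CPM with vehicle and 18.1, 35.7, 15.1 and 25.3 CPM with FGF23. A single mouse set the mean in each of the highest groups, Ad10 among healthy FGF23 mice and Ad7 among diseased vehicle mice. FGF23 changed Cyp24a1 by -1.55 on the log2 scale in diseased mice (SE 0.64, adjusted p = 0.846, unadjusted p = 0.0281, edgeR) and by 0.94 in healthy mice (SE 0.62, adjusted p = 0.827, edgeR). The difference between these effects, the disease by FGF23 interaction, was -2.49 (SE 0.89, adjusted p = 0.941, unadjusted p = 0.0131, edgeR). Without Ad7 the change in diseased mice was -0.69, and without Ad10 that in healthy mice was -0.004.

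Disease itself gave no call for Cyp24a1, with fitted log2 changes of -0.01 for anti-GBM (SE 0.58, adjusted p = 0.990, edgeR) and -0.40 for Adriamycin (SE 0.44, adjusted p = 0.729, edgeR). Vehicle mice alone gave 0.92 and 0.84, and FGF23 mice alone gave -0.95 and -1.65, none of which passed the test (adjusted p from 0.295 to 0.795, edgeR). Within groups of mice, the highest library was 2.36 to 8.13 times the lowest for Cyp24a1. The same ratio was 1.51 to 5.26 for Cyp27b1, 1.11 to 1.61 for Vdr and 1.10 to 1.33 for Rxra.

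The 2 hydroxylases were set against each other within a library as the log2 ratio of Cyp24a1 to Cyp27b1 counts, which is not corrected for gene length and was not tested. In the anti-GBM experiment the ratio was 3.13 ± 0.72 (SD, n = 4) in healthy vehicle mice and 2.64 ± 1.20 (SD, n = 3) in healthy FGF23 mice. It was 2.10 ± 0.76 (SD, n = 4) in diseased vehicle mice and 0.34 ± 1.23 (SD, n = 3) in diseased FGF23 mice. In the Adriamycin experiment it was 1.07 ± 0.94 (SD, n = 4) in healthy vehicle mice, 3.02 ± 2.06 (SD, n = 4) in healthy FGF23 mice, 3.44 ± 1.07 (SD, n = 4) in diseased vehicle mice and 2.06 ± 0.57 (SD, n = 4) in diseased FGF23 mice. The order of healthy and diseased vehicle mice was thus not the same in the experiments: in the Adriamycin experiment every diseased vehicle mouse (2.26 to 4.87) was above every healthy vehicle mouse (-0.15 to 2.13), while in the anti-GBM experiment the ranges overlapped (1.04 to 2.76 against 2.26 to 4.00).

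**Figure D2:**
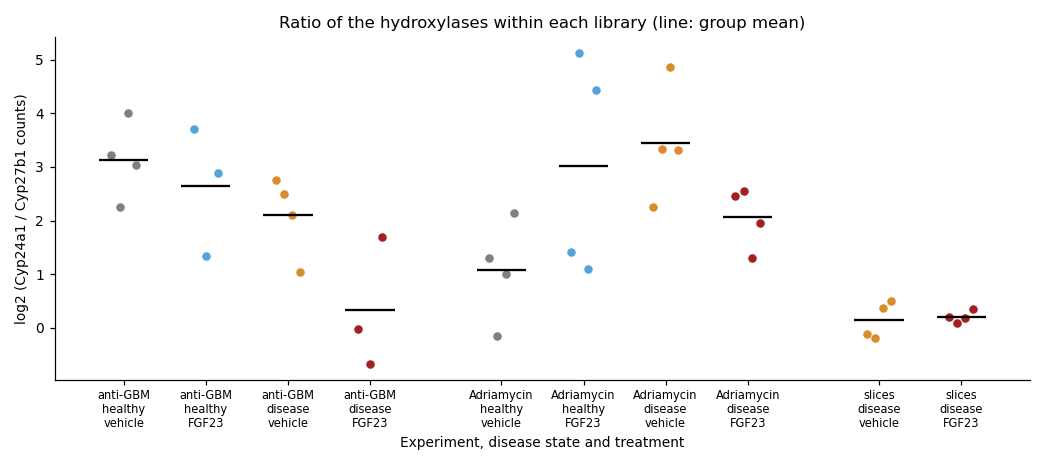
The log2 ratio of Cyp24a1 to Cyp27b1 counts in each library, by experiment, disease state and treatment, with a line at each group mean. Slices of both treatments lie between -0.19 and 0.50, and the widest spread is in healthy FGF23 mice of the Adriamycin experiment (1.09 to 5.13).

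Vdr, which encodes the calcitriol receptor, fell in anti-GBM disease and was lowest in the diseased mice given FGF23. It was at 353, 359, 376 and 450.2 CPM in healthy vehicle mice and 388, 315.5 and 394 CPM in healthy FGF23 mice. Diseased mice had 467, 317, 345 and 291 CPM with vehicle and 229.8, 256 and 247 CPM with FGF23. The diseased FGF23 mice were below all other mice of that experiment, whereas the diseased vehicle mice overlapped the healthy mice. The disease effect over both treatments was -0.35 on the log2 scale (SE 0.10, adjusted p = 0.0120, edgeR), but -0.12 among vehicle mice (adjusted p = 0.522, edgeR) and -0.58 among FGF23 mice (adjusted p = 0.0134, edgeR). Without the healthy FGF23 mouse NTS11 the disease effect was -0.28 (adjusted p = 0.0537, edgeR). FGF23 changed Vdr by -0.54 in anti-GBM disease (SE 0.15, adjusted p = 0.222, unadjusted p = 0.00253, edgeR), the smallest p of any member in an FGF23 comparison, and DESeq2 gave an adjusted p of 0.0506. The interaction was -0.47 (SE 0.21, adjusted p = 0.589, unadjusted p = 0.0395, edgeR).

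Vdr in the Adriamycin experiment spanned 226 to 303 CPM over all 16 mice, with group means of 251 ± 20.1 in healthy vehicle, 270.5 ± 19.98 in healthy FGF23, 276 ± 14.7 in diseased vehicle and 282 ± 18.6 CPM in diseased FGF23 mice (SD, n = 4 each). The 4 groups overlapped, and the disease effect was 0.10 on the log2 scale (SE 0.05, adjusted p = 0.355, edgeR). The disease effects of the experiments differed for Vdr by -0.44 (SE 0.11, adjusted p = 0.00255, edgeR fit of 30 mice).

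Rxra, the gene of the receptor's partner, also fell in anti-GBM disease. Healthy mice had 199.6, 219, 217 and 201 CPM with vehicle and 214, 208 and 179.6 CPM with FGF23. Diseased mice had 195, 166, 169.9 and 156 CPM with vehicle and 149.5, 168 and 159 CPM with FGF23. Only NTS5, a diseased vehicle mouse at 195 CPM, lay within the healthy range. The disease effect was -0.31 on the log2 scale (SE 0.06, adjusted p = 0.00112, edgeR), with similar sizes among vehicle mice (-0.28) and FGF23 mice (-0.34), and it kept passing whichever of the 14 mice was omitted. Rxra in the Adriamycin experiment was at 138 to 185 CPM in all 16 mice, with a disease effect of 0.06 (SE 0.06, adjusted p = 0.650, edgeR), and the effects of the experiments differed by -0.37 (SE 0.09, adjusted p = 0.00103, edgeR). FGF23 gave no call for Rxra, with log2 fold changes of -0.06 and -0.11 in healthy and diseased mice of the anti-GBM experiment and 0.08 and 0.03 in those of the Adriamycin experiment.

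Lrp2 (megalin) and Cubn (cubilin), the uptake receptors of the proximal tubule, fell together in anti-GBM disease. Lrp2 was at 1582, 2308, 2367 and 2508 CPM in healthy vehicle mice and 1952, 1761 and 1956 CPM in healthy FGF23 mice. Diseased mice had 1803, 1099, 1471 and 1131 CPM with vehicle and 1197, 1268 and 1611 CPM with FGF23. NTS5 and NTS16 were the diseased mice that reached the range of the healthy ones, whose lowest was NTS1 at 1582 CPM. The disease effect on Lrp2 was -0.57 on the log2 scale (SE 0.13, adjusted p = 0.00264, edgeR).

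Cubn was at 425, 554, 520.1 and 706 CPM in healthy vehicle mice and at 454, 414 and 506 CPM in healthy FGF23 mice. Diseased mice had 339, 287, 460.2 and 432 CPM with vehicle and 319.7, 343.5 and 425.5 CPM with FGF23, so 4 of 7 were below every healthy mouse. The disease effect on Cubn was -0.44 (SE 0.13, adjusted p = 0.0114, edgeR). Both effects passed the test with each mouse left out, and both were larger among vehicle mice (-0.67 for Lrp2 and -0.54 for Cubn) than among FGF23 mice (-0.48 and -0.34), where neither passed (adjusted p = 0.0925 and 0.218, edgeR), although the interactions of 0.20 and 0.20 did not pass either (adjusted p = 0.838 and 0.825, edgeR).

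Other proximal tubule genes fell beside them. Of the 8 markers, 7 were lower in anti-GBM disease and none was higher (median -0.62 on the log2 scale). Their summed level was 11574 to 14696 CPM in healthy and 6434 to 12310 CPM in diseased mice. Calls of these markers, and of the macrophage and fibroblast markers, stand against the 48.3% of all genes called in this comparison. Slc34a1, the phosphate transporter that FGF23 acts on, fell by 0.54, and Slc7a13, an amino acid transporter subunit, fell by 1.31 on the log2 scale. Macrophage markers rose in the same mice, with 5 of 5 higher and a summed level of 200 to 319 CPM against 93.6 to 136 CPM. Fibroblast markers rose as well, 5 of 5 of them, by a median of 1.11 on the log2 scale. The part of these shifts in the falls of Lrp2, Cubn, Vdr and Rxra was not tested.

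**Figure D3:**
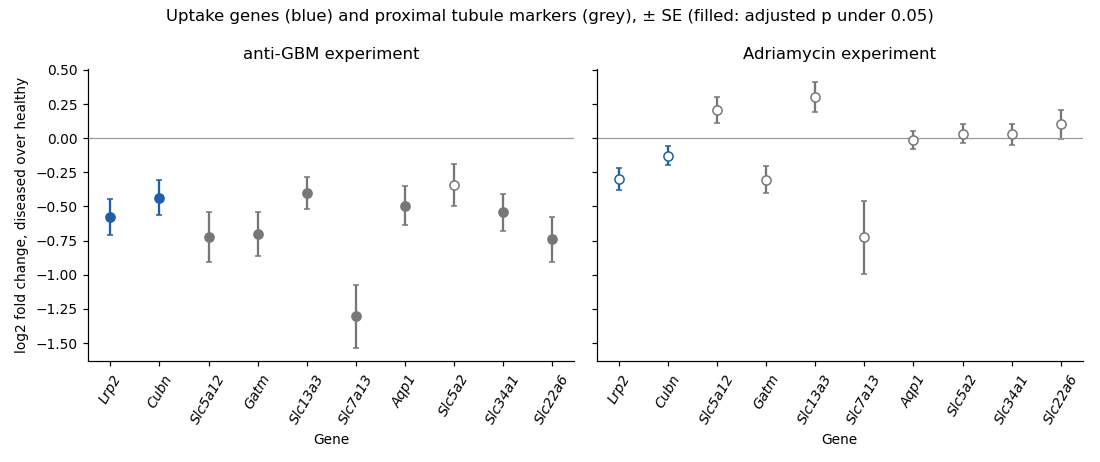
Log2 fold changes (diseased over healthy, both treatments, ± SE) of Lrp2, Cubn and 8 proximal tubule markers in each mouse experiment, filled where the adjusted p is under 0.05. In anti-GBM disease the uptake genes, at -0.57 and -0.44, lie within the range of the markers (-1.31 to -0.34), and in Adriamycin disease the markers spread from -0.73 to 0.30.

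In the Adriamycin experiment, Lrp2 was at 2497, 2769, 2739 and 1994 CPM in healthy vehicle mice and at 2914, 2389, 2621 and 3098 CPM in healthy FGF23 mice. Diseased mice had 2213, 2202, 1942 and 2482 CPM with vehicle and 2097, 1902, 1942 and 2308 CPM with FGF23. Among FGF23 mice the diseased were all below the healthy, and among vehicle mice they overlapped. The disease effect of -0.30 (SE 0.08, adjusted p = 0.0626, edgeR) did not pass the test, and DESeq2 called it (-0.30, adjusted p = 0.00948). It also passed in edgeR with no filter on low counts (adjusted p = 0.0287), without Ad4 (adjusted p = 0.0197) and without Ad10 (adjusted p = 0.0498). Cubn was at 456 to 667 CPM in healthy and 477 to 618 CPM in diseased mice, with a disease effect of -0.13 (SE 0.07, adjusted p = 0.410, edgeR). Among FGF23 mice the diseased (477 to 563 CPM) were all below the healthy (566 to 667 CPM), and among vehicle mice they overlapped. The Cubn effect was -0.24 among FGF23 mice (adjusted p = 0.325, edgeR) and -0.02 among vehicle mice (adjusted p = 0.983, edgeR). The differences between the disease effects of the experiments, -0.27 for Lrp2 and -0.30 for Cubn, did not pass the test (adjusted p = 0.169 and 0.0993, edgeR). No proximal tubule marker was called in Adriamycin disease, where 1.94% of all genes were. The median log2 fold change of these markers was 0.03.

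**Figure D4:**
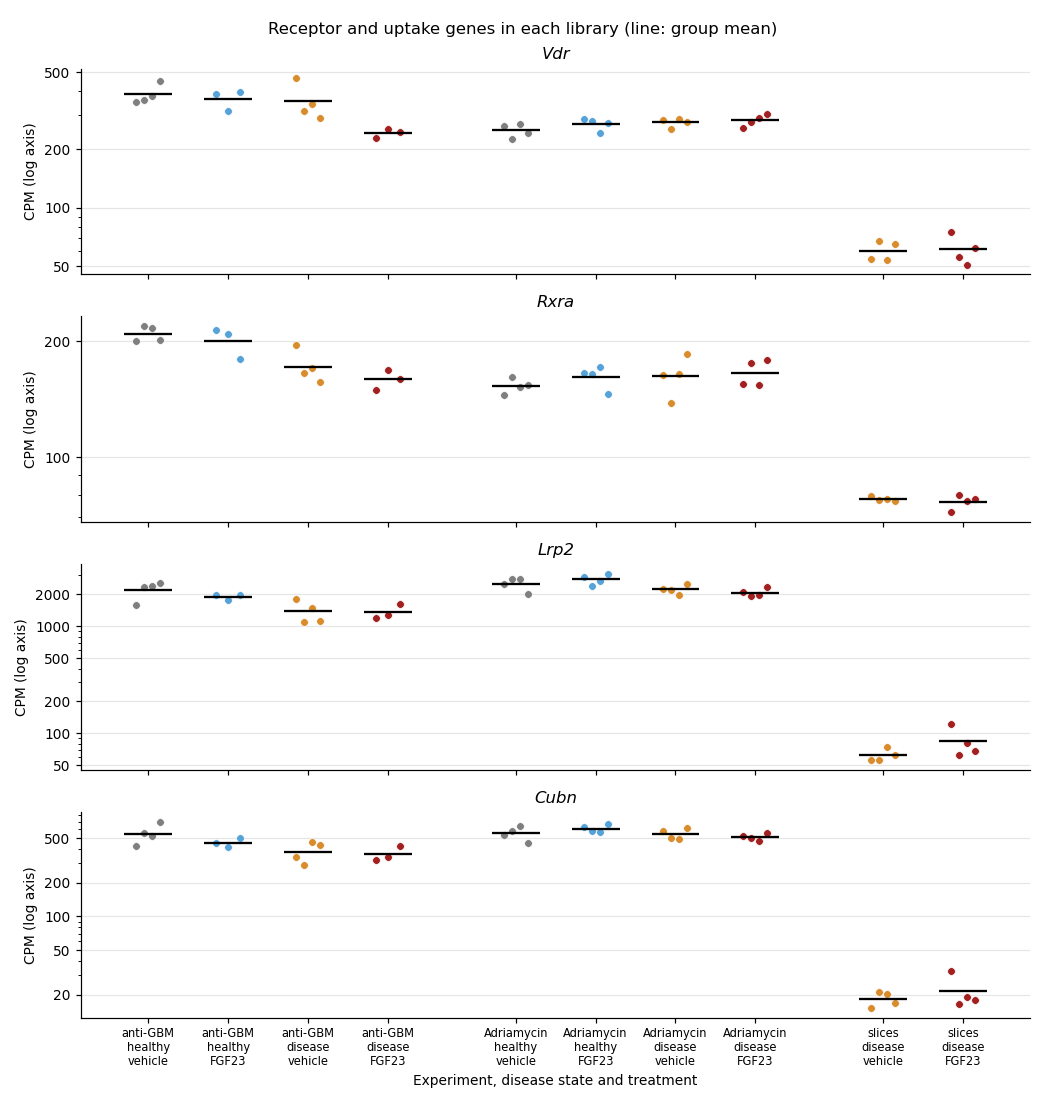
Vdr, Rxra, Lrp2 and Cubn in CPM on log axes for each of the 38 libraries, by experiment, disease state and treatment, with a line at each group mean. The means of all 4 genes sit lower in the diseased than in the healthy groups of the anti-GBM experiment, with single libraries overlapping, and far lower in the slices, where Lrp2 spans 55.9 to 123 CPM.

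In all, 5 of the 6 members were called in anti-GBM disease, 1 higher and 4 lower. Disease there moved 48.3% of 15859 genes tested, so a count of 5 stands against a high background. The median log2 fold change was -0.33 over the members and -0.02 over all genes. In Adriamycin disease 1 of 6 was called, against 1.94% of 16020 genes.

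FGF23 gave no call for any member in edgeR's test. In healthy mice 0 of 6 were called in either experiment, where 0% of all genes were (anti-GBM experiment, 15859 tested) and 0% (Adriamycin experiment, 16020 tested). At an unadjusted p below 0.05 there were 0 members in the former, against 4.34% of all genes, and 1 in the latter, against 6.69%. The latter was Cyp27b1, which changed by -1.09 (SE 0.34, unadjusted p = 0.00542, adjusted p = 0.689, edgeR). With FGF23 it changed by -0.16 in healthy (SE 0.48) and -0.67 in diseased mice (SE 0.45) of the anti-GBM experiment. In Adriamycin disease its change was 0.13 (SE 0.37), and the Adriamycin interaction was 1.23 (SE 0.50, unadjusted p = 0.0265, adjusted p = 0.967, edgeR). In diseased mice 0 of 6 were called in each experiment, against 0.24% of genes in anti-GBM disease and 0.0375% in Adriamycin disease. There, 2 members (Vdr and Cyp24a1) and 1 member (Cyp24a1) had an unadjusted p below 0.05, against 12.6% and 5.69% of all genes. The interaction called 0 of 6, against 0.0315% of genes in the anti-GBM and 0% in the Adriamycin experiment, with 1 member (Vdr) and 2 members (Cyp24a1 and Cyp27b1) at an unadjusted p below 0.05, as were 8.3% and 5.11% of all genes. DESeq2 also called 0 members in each of these comparisons. The FGF23 effects in healthy and diseased mice rest on different mice, and the interaction shares them.

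**Figure D5:**
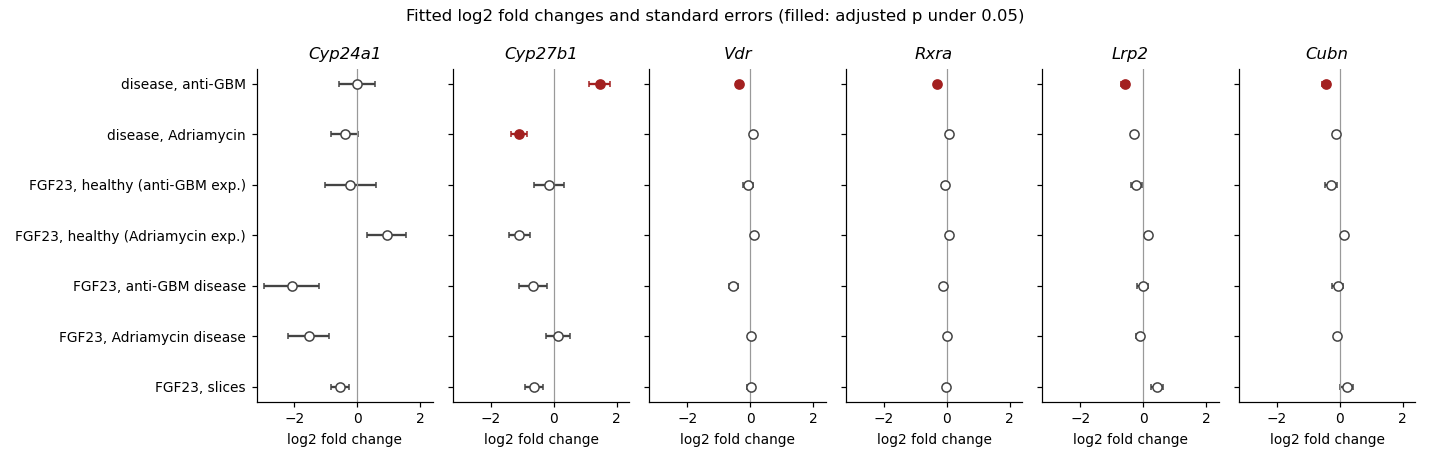
Fitted log2 fold changes of the 6 members with SE in 7 comparisons (disease over healthy for both treatments, or FGF23 over vehicle), filled where the adjusted p is under 0.05. Filled points are the 5 members called in anti-GBM disease and Cyp27b1 in Adriamycin disease, and the widest error of each mouse comparison belongs to Cyp24a1.

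In the slices, Cyp27b1 was at 14.3, 34.97, 14.9 and 22.6 CPM with vehicle and 13.7, 15.97, 9.78 and 16.7 CPM with FGF23. Cyp24a1 was at 13.2, 30.7, 19.2 and 32.05 CPM with vehicle and 15.7, 17.1, 11.2 and 21.3 CPM with FGF23. The ranges of both overlapped between treatments, and the highest values were in vehicle slices. Their log2 fold changes were -0.64 (SE 0.28, unadjusted p = 0.0449) and -0.55 (SE 0.28, unadjusted p = 0.0734), and edgeR gave both an adjusted p of 0.849. Lrp2 was at 55.9, 56.8, 74.0 and 62.7 CPM with vehicle and 123, 63.1, 81.5 and 67.7 CPM with FGF23 (log2 fold change 0.43, SE 0.19, unadjusted p = 0.0484, adjusted p = 0.849, edgeR). Cubn was at 15.1, 21.2, 20.01 and 16.9 CPM with vehicle and 32.5, 16.5, 18.9 and 17.9 CPM with FGF23 (0.22, SE 0.21, adjusted p = 0.867, edgeR). The FGF23 slice numbered 1 held the highest value of both uptake genes, and its proximal tubule markers summed to 1022 CPM against 413 to 654 CPM in the other 7 cultures. Without it the log2 fold changes were 0.19 for Lrp2 and -0.05 for Cubn. Vdr (51.1 to 75.1 CPM) and Rxra (72.0 to 79.7 CPM) overlapped between treatments, with log2 fold changes of 0.02 and -0.02. No member was called, and of the 15090 genes tested 0% were called. At an unadjusted p below 0.05 there were 2 members and 4.89% of all genes, and DESeq2 called 0 members.

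Levels were ordered over the 10 groups as a description, since scaling was done within each experiment. For Vdr, Rxra, Lrp2 and Cubn the slice groups were the lowest 2, at means of 60.4 and 61.1 CPM for Vdr, 76.7 and 78.0 CPM for Rxra, 62.3 and 83.8 CPM for Lrp2 and 18.3 and 21.4 CPM for Cubn. The lowest mouse group of each gene was above them by more than the larger SD, at 244 ± 13.3 CPM (SD, n = 3) for Vdr, 153 ± 6.90 CPM (SD, n = 4) for Rxra, 1358 ± 221 CPM (SD, n = 3) for Lrp2 and 363 ± 55.5 CPM (SD, n = 3) for Cubn. For Cyp27b1, in contrast, slices with vehicle (21.7 ± 9.62 CPM, SD, n = 4) ranked second, between anti-GBM disease with vehicle (28.6 ± 8.91 CPM, SD, n = 4) and anti-GBM disease with FGF23 (18.02 ± 5.15 CPM, SD, n = 3). No pair of neighbours in the order differed by more than the larger SD for Cyp27b1 or Cyp24a1. Among mouse groups such steps were few: 1 each for Rxra (healthy FGF23 to diseased vehicle), Lrp2 (the same groups) in the anti-GBM experiment, and Cubn (Adriamycin diseased FGF23 to anti-GBM healthy FGF23), and none for Vdr. The slices differ from the mouse kidneys in strain, age, disease and culture, which cannot be told apart.

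Per kilobase of exon, Lrp2 had the highest level of the 6 in the mouse kidneys, with medians of 101 CPM per kb in the anti-GBM and 141 CPM per kb in the Adriamycin experiment. Vdr followed at 61.7 and 48.6, Rxra at 34.3 and 29.7, Cubn at 28.7 and 37.8, Cyp24a1 at 15.8 and 9.96, and Cyp27b1 at 5.85 and 2.38 CPM per kb. In the slices the medians were 14.2 for Rxra, 10.5 for Vdr, 6.00 for Cyp27b1, 5.10 for Cyp24a1, 3.92 for Lrp2 and 1.23 CPM per kb for Cubn. Lrp2 thus stood highest in both mouse experiments and above only Cubn in the slices.

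After centring log2 CPM within each experiment, the members were compared with 13974 genes over all 38 libraries as a description, and the libraries share disease and treatment groups. Lrp2 and Cubn were among each other's 3 nearest genes (Pearson's r = 0.83), and the log2 ratio of their counts had group means between 1.77 and 2.17. Cyp24a1 and Cyp27b1 had an r of 0.23. The nearest genes to Cyp27b1 were Eef1akmt3 (0.78), AB124611 (0.71) and Slc25a45 (0.70). Eef1akmt3 lies near Cyp27b1 on chromosome 10 (127031004 to 127041513, opposite strand), with 6736 bases between them. No annotated gene lay wholly within those bases, and genes that reach into them while overlapping Eef1akmt3 or Cyp27b1 were not looked for. Cyp24a1 was nearest to Etv5 (0.66), Klf10 (0.66) and Lpar2 (0.60), and Vdr to Lpar2 (0.76), Cpt1a (0.76) and Slc47a1 (0.76). Rxra was nearest to Plekhb2 (0.92), Tmem64 (0.87) and Gm5424 (0.87), Lrp2 also to Fras1 (0.83) and Chrna4 (0.83), and Cubn also to mt-Cytb (0.74) and mt-Co1 (0.72).

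Other genes of the pathway were counted in lists by role. Each list's calls stand against 48.3% of all genes called in anti-GBM disease and 1.94% in Adriamycin disease. Of hydroxylation and carriage genes, 5 of 6 were tested in the anti-GBM experiment, with 2 higher and 2 lower in disease. Gc, which encodes the vitamin D carrier protein, rose by 2.54 on the log2 scale (SE 0.34, adjusted p = 3.80e-05, edgeR), and vehicle mice had 20.97 ± 12.03 CPM when healthy (SD, n = 4) and 110.1 ± 59.5 CPM when diseased (SD, n = 4). It also rose in Adriamycin disease, by 0.76 (SE 0.10, adjusted p = 0.000829, edgeR), from 167 ± 28.6 to 289.5 ± 48.2 CPM in vehicle mice (SD, n = 4 each), 1 of 4 genes tested and the sole call of the list there. Cyp2r1, a precursor-making hydroxylase, fell by 0.62 in anti-GBM disease (SE 0.24, adjusted p = 0.0486, edgeR). Its level was near the floor, at 0.43 to 2.19 CPM in single mice of that experiment. Cyp27a1, which encodes another such enzyme, had a log2 fold change of -0.003 at 42.3 to 61.6 CPM.

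Of the endocytic genes that serve megalin and cubilin, 7 of 17 fell and 2 rose in anti-GBM disease, a share close to that of all genes, with a median log2 fold change of -0.002. Lrpap1, the chaperone of megalin, fell by 0.51 (SE 0.07, adjusted p = 8.40e-05), Dab2, the adaptor on its tail, fell by 0.36 (SE 0.07, adjusted p = 0.000732) and Clcn5, the endosomal chloride exchanger, fell by 0.29 (SE 0.11, adjusted p = 0.0411, all edgeR). Amn, the membrane anchor of cubilin, had a log2 fold change of 0.001 (SE 0.07, adjusted p = 0.994, edgeR). None of the 17 was called in Adriamycin disease, where 1.94% of all genes were. In the slices Amn was at 12.5 to 22.6 CPM, against 88.3 to 145 CPM in the mouse kidneys.

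Of the 13 receptor partners and coregulators, 2 rose and 3 fell in anti-GBM disease, the latter Ncoa1 (-0.35), Ncoa2 (-0.50) and Ncor1 (-0.32), and 0 of 12 tested were called in Adriamycin disease. Rxrb, the related retinoid receptor gene, had a log2 fold change of -0.08 (SE 0.05, adjusted p = 0.239, edgeR) in anti-GBM disease. Of the 8 hormone receptors that act on the hydroxylases, 4 fell and 1 rose, with Pth1r, the parathyroid hormone receptor gene, at -0.27 (SE 0.08, adjusted p = 0.0148) and Kl, the FGF23 co-receptor gene, at -0.65 (SE 0.13, adjusted p = 0.00127, both edgeR). Of 9 genes known as calcitriol targets in kidney, 3 rose and 1 fell. Their log2 fold changes had a median of 0.08 and a lowest value of -0.54. Those that rose were Trpv5 (0.94), Trpv6 (1.15) and Spp1 (3.53), the first 2 calcium channels and Spp1 also a gene of injured tubules. Casr was counted both in this list and among the hormone receptors. No gene of these last 2 lists was called in Adriamycin disease. As for the 12 receptor partners and coregulators tested, this stands against 1.94% of all genes called there. For FGF23 or the interaction, no gene of any of the 5 lists was called in any experiment, against at most 0.24% of all genes.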

How the data were processed

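The authors sequenced stranded mRNA libraries of kidney or kidney slices and deposited raw read counts per gene for the 38 libraries. Per the labels and the submitters' processing notes they used bcl2fastq 2.20.0, FastQC 0.11.8, STAR 2.7.9a and featureCounts 1.5.1 with mouse build GRCm38. Columns of mouse libraries carry animal codes, and these were matched to groups through the column headers of the study's supplementary tables. The code NTS4 stands in 2 column names. One was a healthy vehicle mouse labelled NTS4 in those headers, and the other a diseased FGF23 mouse labelled NTS14 there, called NTS14 here. Every column of sample values was used.

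Genes were read by Ensembl identifier, of which 55141 matched a GENCODE symbol and 346 did not. Each experiment was fitted separately in edgeR 4.0.16 (R 4.3.3, limma 3.58.1) with 1 coefficient per group, TMM scaling, filterByExpr with a minimum count of 10 and the quasi-likelihood test. P-values were adjusted by Benjamini-Hochberg over all genes tested in a comparison, and a gene was called below 0.05. The scripts were tested on simulated counts. Levels are TMM-scaled CPM, and likeness used log2 CPM with a prior count of 2. DESeq2 1.42.0, RLE scaling, other filters, a robust fit, an added fold threshold, single arms and libraries left out were alternatives. The fit of 30 mice that compares the disease effects was added after the data were seen.

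The 6 genes, the pathway lists and the marker lists were chosen with earlier results of these data known. The rule for naming other genes gave Amn, Dab2, Clcn5, Cyp2r1, Cyp27a1, Gc, Pth1r, Kl and Rxrb, list genes called for FGF23 (there were none) and the 3 genes most like each member. Other list and marker genes were named after their values were seen. No replicate pair of a group agreed within counting noise (smallest chi-square per degree of freedom 2.12 over 54 pairs). Where the labels do not say that samples are separate animals, p-values measure the spread between samples only.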

Additional observations from a re-analysis of the deposited data

Results flagged for a closer look

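Of 48 sets of 4 libraries (6 genes in the 8 groups of that size), 4 held a library standing apart from the others by Dixon's criterion at 95%, where chance alone gives about 1 in 20. Cyp24a1 was at 161.2 CPM in the diseased vehicle mouse Ad7 of the Adriamycin experiment, against 28.7 to 46.4 CPM in the other 3. Cyp27b1 was at 20.74 CPM in the healthy vehicle mouse NTS4 of the anti-GBM experiment, against 3.94 to 6.08 CPM. Cyp27b1 was also low, at 3.269 CPM, in the diseased FGF23 mouse Ad13 of the Adriamycin experiment, against 6.11 to 6.49 CPM. Cubn was at 32.48 CPM in the FGF23 slice numbered 1, against 16.5 to 18.9 CPM.

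The disease effects of the mouse experiments differed, by edgeR's test in the fit of 30 mice, for Cyp27b1 (2.588 on the log2 scale, anti-GBM minus Adriamycin, adjusted p = 2.97e-05), Vdr (-0.442, adjusted p = 0.00255) and Rxra (-0.366, adjusted p = 0.00103).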

How the results depend on the processing

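Of 1146 single values under the alternatives, 1087 kept their direction and their side of the threshold. The 5 members called in anti-GBM disease became 4 among vehicle mice only, 2 among FGF23 mice only and 1 with an added absolute log2 fold change above 1. The 1 member called in Adriamycin disease became 0 among FGF23 mice only and 0 in the robust fit (1.92% of all genes called). It became 2 with no filter on low counts (1.22% of all genes) and 2 with DESeq2 (3.3% of all genes). With single libraries left out, these counts ran from 4 to 5 and from 0 to 2, and were 0 throughout for FGF23 and the interaction. The causes were not tested.

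Direction reversed 35 times, never for a called value. Cyp24a1 in anti-GBM disease became 0.924 among vehicle mice only, 0.031 with no filter and 0.035 with at least 10 counts in every library, and in Adriamycin disease it became 0.84 among vehicle mice only. The other 31 reversals came from leaving out 1 library. The ranges in the anti-GBM experiment were -0.758 to 0.558 for Cyp24a1 with disease. With FGF23 in healthy mice they were -1.271 to 0.53 for Cyp24a1, -0.403 to 0.674 for Cyp27b1, -0.113 to 0.032 for Vdr and -0.089 to 0.03 for Rxra. With FGF23 in diseased mice they were -0.158 to 0.146 for Lrp2 and -0.194 to 0.041 for Cubn, and -0.132 to 0.003 for the interaction of Rxra. In the Adriamycin experiment they were -0.83 to 0.07 (Cyp24a1, disease), -0.004 to 1.248 (Cyp24a1, FGF23 in healthy mice), -0.004 to 0.073 (Vdr, FGF23 in diseased mice), -0.044 to 0.098 (Rxra, the same) and -0.123 to 0.016 (Rxra, interaction). In the slices they were -0.097 to 0.091 for Vdr, -0.04 to 0.008 for Rxra and -0.045 to 0.334 for Cubn.

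Mice were not paired in any fit, and their columns carry no replicate number of the labels. For slices, the deviations of same-numbered cultures correlated at 0.107, 0.105, -0.105 and 0.112. Those of differently numbered cultures correlated at -0.161 to 0.124. The ranges overlap, so these values cannot decide whether cultures of 1 number form a pair, and the main fit did not pair them. With the number as a replicate block, 0 members were called, and the log2 fold changes were -0.505 for Cyp24a1, -0.575 for Cyp27b1, 0.009 for Vdr, -0.024 for Rxra, 0.383 for Lrp2 and 0.183 for Cubn.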
